A study of Mus musculus with 32 samples.

Results

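The genes described are those that encode the respiratory chain complexes, the ATP synthase, the mitochondrial ribosome and the protein import machinery of mitochondria. They were chosen by symbol: a name that starts with Nduf, Sdh, Uqcr, Atp5, Mrpl, Mrps, Timm or Tomm, or with Cox and a digit. The mouse annotation holds 210 protein-coding genes with such names. Of these, 13 stood among the 2508 genes that the deposited tables list as differing between AKO and WT in at least 1 tissue, where AKO stands for adipocyte Bcl6 knockout. The tables list only genes with an adjusted p under 0.05 in the authors' test, so the other names were either tested and not called or not tested, and their levels were not analysed here. The count of 210 is therefore not the number the authors tested. No share of all tested genes listed in at least 1 tissue was computed to set beside the 13.

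Poly(A) RNA was sequenced from 32 mouse samples in 8 groups of 4, all on a C57BL/6 background. The AKO groups carried Bcl6 fl/fl;Adipoq-Cre, in which the adiponectin promoter drives Cre in adipocytes, and the WT groups carried Bcl6 fl/fl without Cre. Both genotypes were sampled in 4 settings, namely male liver, male perigonadal fat and the inguinal fat of either sex. Every group, WT included, carried the loxP-flanked allele, and no group carried Cre alone, so deletion and Cre transgene cannot be told apart. Ages were not used here, since the labels give none. Animal numbers show that the perigonadal and the male inguinal depots were taken from 1 set of mice, while livers and female fat came from others. Each library within a group has its own animal number, so the spread between replicates is a spread between mice.

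Mitochondria make most of the ATP of a cell by passing electrons along complexes I to IV of the inner membrane and letting the proton gradient drive the ATP synthase (complex V). A few core subunits are encoded in mitochondrial DNA and made on mitochondrial ribosomes, while the other subunits, and every protein of those ribosomes, are encoded in the nucleus and imported through the TOM (Tomm) and TIM (Timm) complexes. White adipocytes use this machinery to supply the synthesis and turnover of stored fat, and brown adipocytes use it for heat. Bcl6 encodes a zinc-finger repressor of transcription.

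Read counts per library were used for both inguinal sets and liver (24 samples), and for perigonadal fat the authors' deposited table of fold changes was used. The count tables hold only the listed genes, and their totals of 592820 to 2603509 reads per male inguinal library, 864592 to 4072659 per female inguinal library and 97314 to 358660 per liver library are not the sequencing depth. The authors' size factors, recovered from the deposited means, were 1.37 ± 0.233 in AKO and 0.786 ± 0.285 in WT female inguinal fat (SD, n = 4 each, 2-sided exact permutation p = 0.0286, the smallest this design allows). In male inguinal fat they were 1.36 ± 0.423 in AKO and 0.838 ± 0.332 in WT (SD, n = 4 each, exact permutation p = 0.114). The targeted gene was listed only in female inguinal fat, where the authors' deposited table gives a log2 fold change of 1.09 ± 0.13 (SE), higher in the libraries labelled AKO. A count over the whole gene does not check for the loss of the floxed exons, so the genotype labels could not be checked on Bcl6. Of the 8 adipocyte markers, Adipoq, Plin1, Cebpa, Cidec and Lipe were among the genes listed in 1 or another fat table. Another of the 8, Pparg, was listed in liver, as lower in AKO. None of the 7 hepatocyte markers was listed in any table. A listed gene is one that differed between genotypes, so being listed or not does not check the tissue. The description of AKO liver replicate 4 names WT perigonadal fat. Its title says liver. Kng1, a kininogen gene that the liver expresses, had 66925 normalized counts there against 59466 to 83851 in the other AKO livers. In the WT livers Kng1 had 39546 to 40760 normalized counts, so it is itself among the genes that differed between AKO and WT liver.

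The data show a small and uneven set of changes among these genes. Atp5g1, a gene for the membrane ring of the ATP synthase, was higher in AKO than in WT fat in all 3 fat comparisons, by 2.18-fold to 2.78-fold in the authors' deposited tables. Mrps6 and Mrpl45, which encode mitoribosome proteins, were higher in AKO inguinal fat of both sexes. The female Mrpl45 call was lost in 11 of 15 alternative settings. Mrps6 shares exonic bases with Slc5a3, which rose by a larger factor. The listed members that were lower in AKO differed by under 1.4-fold, except Cox8b, a complex IV subunit gene that fell 3.08-fold in perigonadal fat per the authors' deposited table. No complex I, complex III or outer membrane import gene was listed in any table, where 2508 genes were listed in all. Complex III and outer membrane import hold only 8 and 10 names, and some names of each role may not have been tested. Whether these absences differ from the share of all genes was not tested. No member was listed in liver, beside 0.323% of about 11441 genes tested.

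By role, the listed members were spread thinly. Among annotated names, 0 of 38 complex I subunits, 0 of 9 complex I assembly factors, 0 of 8 complex III genes and 0 of 10 outer membrane import genes were listed. The tables held 1 of 8 complex II genes (Sdhaf1), 1 of 18 complex IV subunits (Cox8b), 1 of 9 complex IV assembly genes (Cox14) and 2 of 17 ATP synthase genes (Atp5g1, Atp5s). They held 5 of 49 large mitoribosome proteins (Mrpl9, Mrpl10, Mrpl45, Mrpl49, Mrpl52), 2 of 29 small ones (Mrps6, Mrps22) and 1 of 15 inner membrane import genes (Timm50). The plot of listed members by role shows these counts. Per direction, the authors listed 2.63% to 5.68% of all genes tested in the fat tables, and in liver 0.323% in either direction. Those shares are each for 1 table, while the role counts are over all 4 tables and both directions. The like share, of tested genes listed in at least 1 table, was not computed, though 2508 genes were listed in all. The 0 of 38 complex I subunits was not tested against such a share. With only 8, 9 or 10 names, some perhaps not tested, a count of 0 does not set a role apart.

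**Figure D1:**
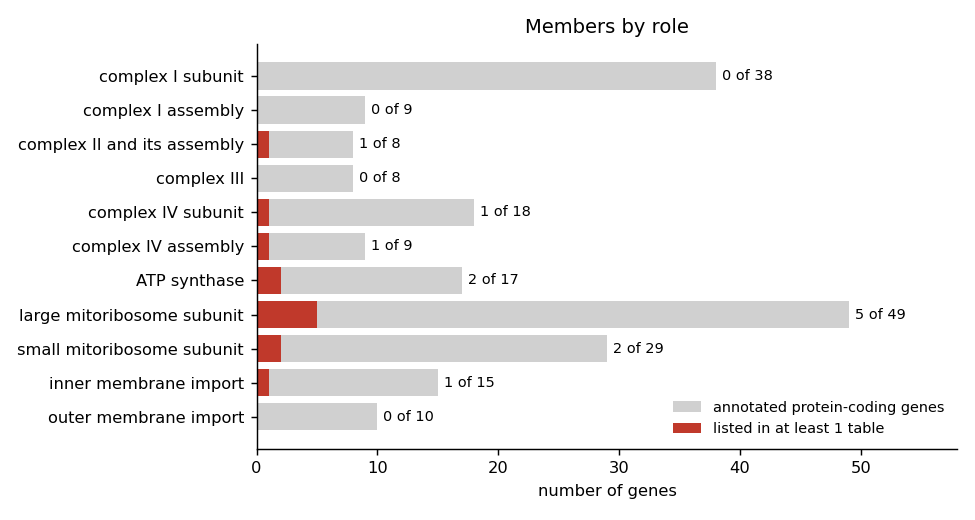
Number of genes per role (rows): grey bars are annotated protein-coding genes and red bars those listed in at least 1 of the 4 tables. The red bars are short in every role, with 5 of 49 large mitoribosome genes the highest count and none in complex I, complex III or outer membrane import.

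As shares of annotated names, the listed members lay below the background of all genes tested in each direction and tissue. In male inguinal fat the authors listed 3 members as higher and 4 as lower, which is 1.43% and 1.9% of the 210 annotated names, beside 4.54% and 4.01% of the 12554 genes tested. In female inguinal fat they listed 3 members as higher and 0 as lower, 1.43% and 0% of the names, beside 3.2% and 2.63% of 13546 genes tested. In perigonadal fat they listed 1 as higher and 7 as lower, 0.476% and 3.33% of the names, beside 5.68% and 5.46% of 13361. In liver no member was listed, beside 0.323% of about 11441 genes. Each denominator of members counts every annotated name, tested or not, so these shares are lower bounds on the shares of tested members. The direction among the few perigonadal members leaned lower, while among all listed genes the directions were nearly even in the authors' deposited table.

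The members' median deposited log2 fold change (AKO over WT) was -0.20 in male inguinal fat, beside 0.23 over all listed genes, and -0.35 in perigonadal fat, beside 0.21. In female inguinal fat it was 1.08, beside 0.30. With 7, 8 and 3 members, these medians only describe the authors' deposited table. At least 2-fold changes were found for 2 members in each fat comparison, beside 9.5%, 10.1% and 10.1% of all listed genes in male inguinal, female inguinal and perigonadal fat.

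The ATP synthase ring gene Atp5g1 (chromosome 11, 96068852 to 96075670, minus strand, mm10) encodes the c subunit, many copies of which turn in the membrane as protons pass. It lay in all 3 fat tables, as 184 genes did, and it was the only member to do so. Its normalized counts, that is counts divided by the authors' size factors, were 1888, 1510, 1653 and 1581 in AKO male inguinal fat, against 542, 602, 622 and 553 in WT. In females they were 3408, 3499, 4240 and 2375 in AKO inguinal fat, against 956, 1417, 1040 and 1146 in WT. The lowest AKO library lay well above the highest WT library in each sex, with AKO female replicate 4 the lowest of its group. Genes with counts were chosen by the authors as differing in these same libraries. A lack of overlap between groups, here and below, is therefore no separate support. Its share over all listed genes was not computed. In edgeR's quasi-likelihood test, with Benjamini-Hochberg adjustment over the number of genes tested, the log2 fold change was 1.51 ± 0.08 in males (SE, 2.85-fold, adjusted p = 3.86e-06) and 1.56 ± 0.17 in females (2.95-fold, adjusted p = 0.00119). In perigonadal fat the authors' deposited table gives 1.12 ± 0.15 (SE, 2.18-fold, adjusted p = 3.86e-12). The like deposited values are 1.47 in male and 1.40 in female inguinal fat, lower than those of edgeR. Atp5g2 and Atp5g3, which encode the same mature protein behind other import signals, were in no table. Reads of the stretch that the paralogs share may have been split or dropped by the authors' counting, so the level of Atp5g1 alone is uncertain.

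The promoter of Atp5g1 is shown because it belongs to the only member higher in all 3 fat tables. It runs from 250 bases before to 50 bases after the RefSeq start, on the minus strand at chr11:96075582-96075881 (GRCm38.p6, the assembly of mm10). No base is in capitals, because none of the motifs searched was found.
Atp5g1: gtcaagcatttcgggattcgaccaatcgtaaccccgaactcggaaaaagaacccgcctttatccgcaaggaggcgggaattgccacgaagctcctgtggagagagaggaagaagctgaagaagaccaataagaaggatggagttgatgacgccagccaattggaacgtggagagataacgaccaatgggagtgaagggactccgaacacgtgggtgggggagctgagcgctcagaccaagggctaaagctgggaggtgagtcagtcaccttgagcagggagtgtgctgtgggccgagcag
The motifs searched were the estrogen-related receptor site AAGGTCA, the ETS site CGGAAGT, the NRF1 core GCATGCG, the BCL6 core TCCTAGA and the STAT and BCL6 palindrome TTCNNNGAA, each on both strands. The promoters of Mrps6 and Mrpl45 held none of these either. That says only that these letters are not in these windows.

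Mrps6 (chromosome 16, 92058270 to 92112227, plus strand) encodes a protein of the small mitoribosome subunit, which reads the mitochondrial mRNA. It had 2008, 1979, 2565 and 1841 normalized counts in AKO male inguinal fat, against 835, 634, 1092 and 915 in WT. In females it had 4066, 3548, 4741 and 3293 in AKO inguinal fat, against 1673, 1706, 1449 and 2123 in WT. The groups did not overlap in either sex, and replicate 3 was the highest AKO library in both. The log2 fold change was 1.26 ± 0.16 in males (SE, 2.40-fold, adjusted p = 0.00112) and 1.17 ± 0.14 in females (2.25-fold, adjusted p = 0.00145) in edgeR's quasi-likelihood test. Mrps6 was not listed in perigonadal fat or liver.

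The rise of Mrps6 has to be read beside Slc5a3, which encodes a myo-inositol transporter and starts in the same place. The RefSeq starts of the 2 genes lie 14 bases apart on the same strand. Of the exonic bases of Mrps6, 159 (10.4% of its exonic length) are also exonic in Slc5a3, where they are 1.5% of 10913 exonic bases. A further gene on that strand, Gm49711, covers 305 exonic bases of Mrps6 (19.9%). Slc5a3 had 3985 to 5516 normalized counts in AKO male inguinal fat, against 746 to 1259 in WT, and 9876 to 12509 in AKO female inguinal fat, against 2682 to 3958 in WT. These are changes of 4.13-fold in males (log2 2.05 ± 0.16, SE, adjusted p = 6.3e-05) and 3.34-fold in females (1.74 ± 0.13, adjusted p = 5.18e-05) in edgeR's quasi-likelihood test. The ratio of Mrps6 counts to Slc5a3 counts was 0.472 ± 0.026 in AKO and 0.811 ± 0.083 in WT male inguinal fat (SD, n = 4 each), and 0.365 ± 0.077 in AKO and 0.538 ± 0.021 in WT female inguinal fat. In each sex the Mrps6 counts thus grew by a smaller factor than those of Slc5a3. How many Mrps6 reads came from the shared bases was not tested.

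The shared start is shown on the plus strand at chr16:92058086-92058385 (GRCm38.p6), again from 250 bases before to 50 bases after the RefSeq start of Mrps6. Capitals mark the bases from the start of Slc5a3 to the last base before the start of Mrps6.
Mrps6: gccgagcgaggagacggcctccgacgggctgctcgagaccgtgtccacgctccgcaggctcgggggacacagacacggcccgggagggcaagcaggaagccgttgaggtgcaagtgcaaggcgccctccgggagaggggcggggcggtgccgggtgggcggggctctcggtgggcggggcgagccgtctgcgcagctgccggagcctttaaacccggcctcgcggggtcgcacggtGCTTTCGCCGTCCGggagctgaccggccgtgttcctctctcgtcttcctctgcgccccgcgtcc
Of the 300-base windows around the starts of the 2 genes, 286 bases are common to both. Slc5a3's own window held none of the 5 motifs.

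Mrpl45 (chromosome 11, 97315716 to 97329920, plus strand) encodes a protein of the large mitoribosome subunit that in mammals faces the inner membrane. It had 903, 765, 820 and 901 normalized counts in AKO male inguinal fat, against 609, 621, 671 and 678 in WT. In females it had 1223, 1172, 1397 and 1102 in AKO inguinal fat, against 879, 969, 933 and 852 in WT. The groups did not overlap, but the gap between them was narrow beside those of Atp5g1 and Mrps6. The log2 fold change was 0.39 ± 0.07 in males (SE, 1.31-fold, adjusted p = 0.0111) and 0.43 ± 0.09 in females (1.35-fold, adjusted p = 0.039) in edgeR's quasi-likelihood test. The female call does not hold without AKO replicate 1, 2 or 3 or without any 1 WT library, with adjusted p of 0.065 to 0.119, nor with TMM scaling (0.123).

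**Figure D2:**
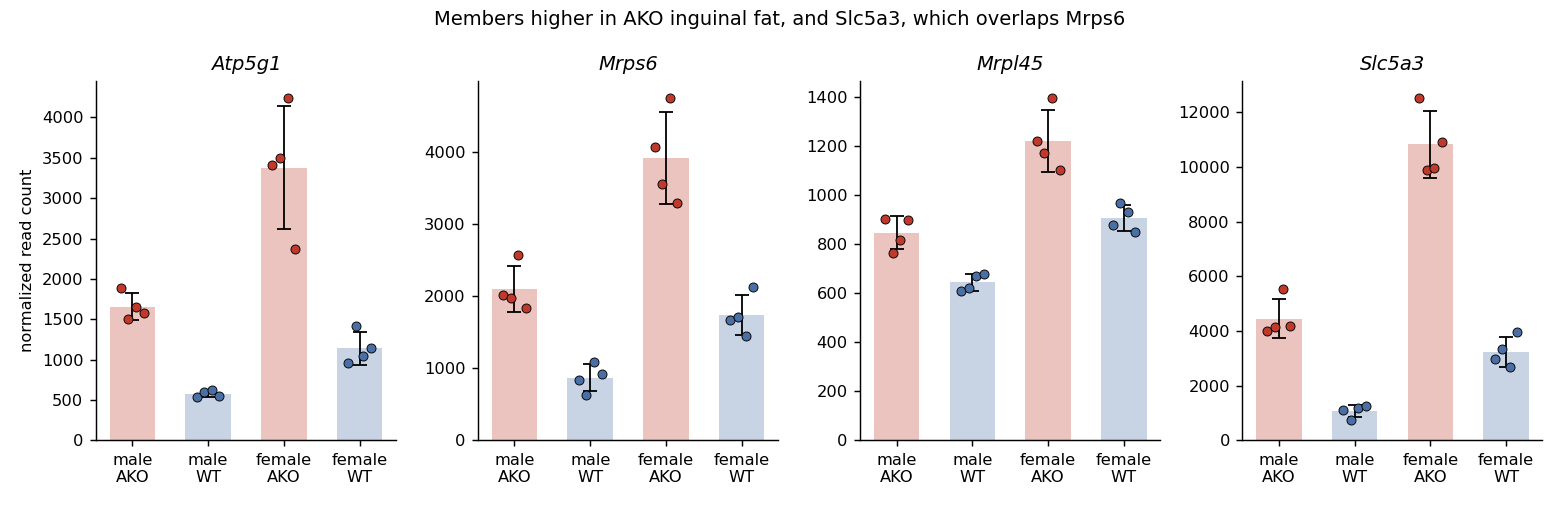
Normalized read counts (linear axes that start at 0) of Atp5g1, Mrps6, Mrpl45 and Slc5a3 in AKO and WT inguinal fat of males and females; points are mice, bars are group means and error bars are 1 SD (n = 4 each). Within each sex every AKO point lies above every WT point, and the relative gap is smallest for Mrpl45. The authors chose these genes as differing in these libraries, so the gaps are no separate support.

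The same 3 members were higher in both sexes. The 4 members listed in males but not in females (Mrpl9, Mrps22, Sdhaf1 and Timm50) had no female counts here, so whether their changes differ by sex was not tested. The difference between the sexes was tested as the interaction of sex and genotype over the 290 genes held for both, of which edgeR called 1.72% (5 genes), none of them a member. Those 290 genes were called by the authors in each sex, a choice that favours genes with a like response, so the count of members called says little on sex differences. The log2 fold change in males minus that in females was -0.05 for Atp5g1 (95% interval -0.475 to 0.373), 0.10 for Mrps6 (-0.358 to 0.554) and -0.04 for Mrpl45 (-0.299 to 0.225), with edgeR adjusted p of 0.935, 0.911 and 0.911. No member reached an unadjusted p under 0.05 (0 of 3), and DESeq2 called 0. With 4 mice per group, differences within those intervals remain compatible with the data. Sex cannot be told apart from the set of mice, since each set holds 1 sex.

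Of the members that were lower in male inguinal fat, only Sdhaf1 was also called by edgeR over all genes tested. Sdhaf1 (chromosome 7, 30321406 to 30323895, minus strand) encodes an assembly factor for the iron-sulfur subunit of complex II. It had 184, 184, 203 and 190 normalized counts in AKO, against 228, 248, 232 and 242 in WT, a log2 fold change of -0.33 ± 0.08 (SE, adjusted p = 0.0382 in edgeR's quasi-likelihood test). All AKO libraries were lower than all WT libraries. The call did not hold when any 1 of the 8 libraries was left out (adjusted p of 0.0616 to 0.127). Of its 2490 exonic bases, 1733 (69.6%) lie opposite E130208F15Rik, and whether the authors counted by strand is not given in the sources used here. Reads of the 2 genes may not be separated.

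The other 3 members that the authors listed as lower in males missed the threshold in edgeR's test over all genes tested. Mrpl9, a large-subunit mitoribosome gene (chromosome 3, 94443318 to 94451130, plus strand), had 882, 841, 896 and 896 normalized counts in AKO, against 1001, 971, 1040 and 1006 in WT. Its log2 fold change was -0.19 ± 0.05 (SE, edgeR adjusted p = 0.0581), and it passed with TMM factors (0.029) and with DESeq2 (0.0197). Timm50 encodes the receptor of the inner membrane import complex, which takes up proteins arriving through the outer membrane (chromosome 7, 28305516 to 28312072, minus strand). It had 743, 699, 734 and 818 normalized counts in AKO, against 856, 855, 896 and 947 in WT, a log2 fold change of -0.25 ± 0.07 (SE, edgeR adjusted p = 0.0555). Timm50 passed with TMM factors (adjusted p = 0.0336), DESeq2 (0.021) and without AKO replicate 4 (0.0381). Mrps22, a small-subunit mitoribosome gene (chromosome 9, 98588730 to 98601660, minus strand), had 228, 193, 253 and 203 normalized counts in AKO, against 258, 259, 278 and 297 in WT. Its log2 fold change was -0.33 ± 0.10 (SE, edgeR adjusted p = 0.0992), and AKO replicate 3 came within a few counts of the lowest WT library. The authors' deposited table gives adjusted p of 0.0066 for Mrpl9, 0.0148 for Timm50 and 0.0478 for Mrps22.

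**Figure D3:**
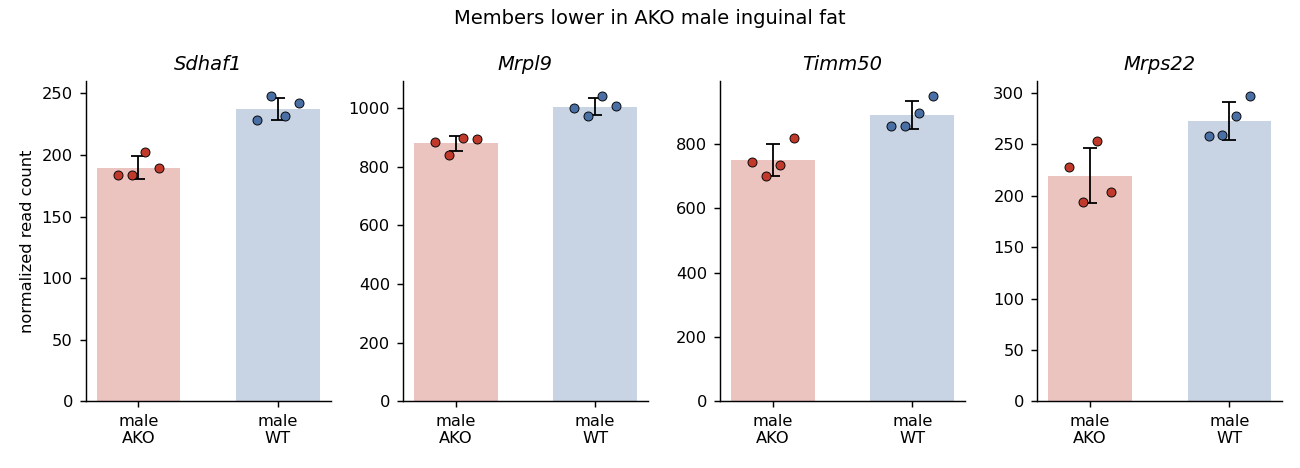
Normalized read counts (linear axes that start at 0) of Sdhaf1, Mrpl9, Timm50 and Mrps22 in AKO and WT male inguinal fat; points are mice, bars are group means and error bars are 1 SD (n = 4 each). The AKO points lie below the WT points in each panel, and in Mrps22 the highest AKO point nearly meets the lowest WT point. The authors chose these genes as differing in these libraries, so the gaps are no separate support.

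Of the 7 listed male members edgeR called 3 as higher and 1 as lower, where it called 34.1% and 26.5% of all 1074 listed genes as higher and lower (2.92% and 2.27% of all genes tested). Of the 3 listed female members it called 3 as higher and 0 as lower, where it called 26.7% and 14.6% of all 790 listed genes (1.56% and 0.849% of all genes tested). The share of listed genes is the like measure here, since the members counted are themselves listed genes. The authors had chosen these genes from the same libraries, so neither the edgeR calls nor groups that do not overlap are independent evidence. The share of calls that were higher in AKO among all listed female genes, 64.7%, depended on the scaling: it was 36.2% with TMM factors and 22.0% with table totals. No member changed direction under either.

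In perigonadal fat, where values are the authors' deposited fold changes and no value per mouse was used, 7 members fell and only Atp5g1 rose. Cox8b (chromosome 7, 140898945 to 140900446, minus strand) encodes a complex IV subunit that in mice is made mainly in muscle and brown fat, while Cox8a serves most other tissues. The authors' deposited table gives Cox8b a mean of 135 normalized counts, a log2 fold change of -1.62 ± 0.24 (SE, 3.08-fold lower) and an adjusted p of 6.03e-10. Cox8a was in no table. Among 12 brown or beige adipocyte markers, the authors' deposited table lists Cidea, a lipid droplet protein gene of brown fat, as lower (log2 -1.60 ± 0.28, mean 38.3) and Ppargc1a as higher (0.47 ± 0.14), and Ucp1 was not listed. Among 17 skeletal muscle markers it lists Casq1, a calcium store protein gene, as lower (-0.75 ± 0.26, mean 33.3). The part of such cells in the Cox8b value was not tested, and in bulk tissue fewer cells of a type and less RNA per cell cannot be told apart.

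The other perigonadal members that fell did so by 1.21-fold to 1.34-fold. By the authors' deposited table, Atp5s, which encodes coupling factor B of the ATP synthase, had a log2 fold change of -0.42 ± 0.13 (SE, adjusted p = 0.0161). Cox14, an assembly factor for the first core subunit of complex IV, had -0.33 ± 0.12 (adjusted p = 0.0439) in the authors' deposited table. The large-subunit mitoribosome genes Mrpl49, Mrpl52 and Mrpl10 had -0.39 ± 0.12, -0.37 ± 0.13 and -0.31 ± 0.11 there, with adjusted p of 0.0121, 0.0431 and 0.0353 in the authors' deposited table. Timm50 had -0.27 ± 0.09 (adjusted p = 0.0298) in the authors' deposited table. It was the only member that the authors listed as lower in both depots of the same males. The adjusted p of these 6 lie between 0.0121 and 0.0439, and in the authors' deposited table only Atp5g1 and Cox8b stayed under 0.01. Mrpl10 (14.1% of exonic bases) and Mrpl49 (4.9%) also overlap genes on the opposite strand.

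**Figure D4:**
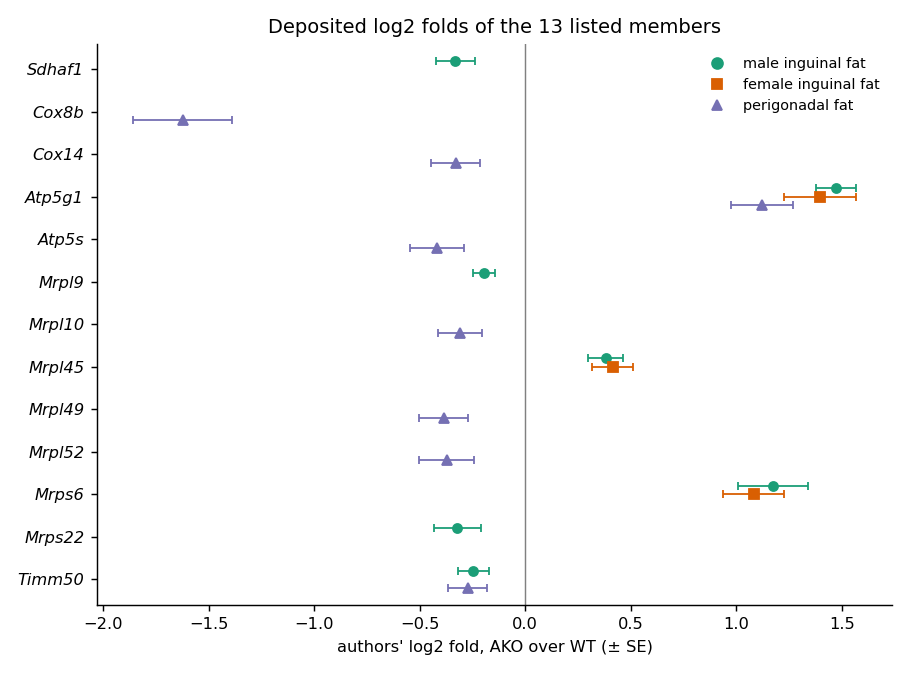
The authors' deposited log2 fold change (AKO over WT) of each member, with its standard error, in the tables that list it; rows are members by role and symbols are tissues. Atp5g1 lies between 1.12 and 1.47 in all 3 fat tables and Cox8b at -1.62, while every member on the lower side other than Cox8b lies between -0.42 and -0.20.

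The promoters of Mrpl10 and Mrps22 are shown because they hold 2 of the motifs searched, in genes listed as lower in AKO in different depots. Capitals mark the motif matches. The windows are chr11:97041332-97041631 on the plus strand for Mrpl10 and chr9:98601630-98601929 on the minus strand for Mrps22 (RefSeq, GRCm38.p6).
Mrpl10: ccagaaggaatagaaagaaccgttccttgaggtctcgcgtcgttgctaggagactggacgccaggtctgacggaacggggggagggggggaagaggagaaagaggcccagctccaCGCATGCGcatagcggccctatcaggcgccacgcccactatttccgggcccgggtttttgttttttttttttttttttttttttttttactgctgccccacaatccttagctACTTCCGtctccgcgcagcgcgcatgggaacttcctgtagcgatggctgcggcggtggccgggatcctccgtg
Mrps22: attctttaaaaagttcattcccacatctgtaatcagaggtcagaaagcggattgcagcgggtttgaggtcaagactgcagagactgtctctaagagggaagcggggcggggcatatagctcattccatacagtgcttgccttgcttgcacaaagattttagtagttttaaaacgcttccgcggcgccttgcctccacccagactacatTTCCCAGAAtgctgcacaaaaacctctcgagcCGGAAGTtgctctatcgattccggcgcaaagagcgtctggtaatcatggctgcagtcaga
Mrpl10 holds GCATGCG, matched on both strands over overlapping bases, and then CGGAAGT as its reverse complement. Mrps22 holds TTCNNNGAA and then CGGAAGT, with no overlap between them. All 13 members had a promoter in the RefSeq table, Atp5s under the symbol Dmac2l. The ETS letters stood in 4 of the 13 (Cox14, Mrpl10, Mrpl52 and Mrps22; 30.8%), beside 6.42% of all 32851 promoters. The NRF1 core stood in 2 (Mrpl10 and Mrpl9; 15.4%), beside 3.58%, and the palindrome in 1 (Mrps22; 7.69%), beside 8.3%. The estrogen-related receptor and BCL6 core letters stood in no member, beside 4.72% and 4.23% of promoters. Every member whose promoter held a motif was on the lower side, as were all of the 13 except Atp5g1, Mrps6 and Mrpl45. The promoters of unlisted genes with such names were not counted apart from all promoters. With 13 promoters this is a description only.

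On the chromosomes, 3 members lie close together: Atp5g1, Mrpl10 and Mrpl45 span 1.26 Mb of chromosome 11, a stretch with 32 protein-coding genes. The stretch was bounded by members, which are listed by definition, so only its other 29 genes can be read against the background. Of these, 1 was listed in male inguinal fat (Skap1, 3.45%, beside 4.59% of all protein-coding genes), 0 in female inguinal fat (beside 3.35%) and 1 in perigonadal fat (Npepps, 3.45%, beside 6.3%). The members there differed in direction: in perigonadal fat Atp5g1 was listed as higher and Mrpl10 as lower in the authors' deposited table.

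Related mitochondrial genes were read from 6 lists, whose shares are over all list genes, tested or not. The lists were chosen with earlier results of these data known, so a share above that of all genes is a description only. Of 49 genes for respiratory chain assembly and cofactors, the authors listed 5 as lower (10.2%, beside 4.01% of all genes tested) and 0 as higher in male inguinal fat. They listed 10 as lower in perigonadal fat (20.4%, beside 5.46%) and 1 in female inguinal fat (2.04%, below the 2.63% of all genes tested). Both male depots came from the same mice, so their shares are not independent of each other. In male inguinal fat Etfa and Etfb, the subunits of the flavoprotein that carries electrons from fatty acid oxidation, averaged 4358 ± 269 and 3906 ± 283 normalized counts in AKO, and 6430 ± 536 and 5593 ± 384 in WT (SD, n = 4 each). Their log2 fold changes were -0.56 and -0.52 (edgeR adjusted p = 0.00286 and 0.00375). Coq10a, a coenzyme Q binding protein gene, had -0.53 (edgeR adjusted p = 0.00354), Coq3, an enzyme of coenzyme Q synthesis, -0.42 (0.0366), and Bcs1l, which inserts the Rieske protein into complex III, -0.44 (0.0203). In perigonadal fat the authors' deposited table lists the same 5 as lower by 0.44 to 0.66 on the log2 scale, beside 0.41 to 0.55 for male inguinal fat by that measure. It adds Etfdh, which passes the electrons on to coenzyme Q, with Coq2, Coq5, Coq7 and Higd1a. The female gene was Sco1, a copper chaperone of complex IV, with a log2 fold change of -0.33 ± 0.11 in the authors' deposited table (edgeR adjusted p = 0.201).

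The adenine nucleotide carrier gene Slc25a5 was higher in AKO fat in all 3 fat comparisons. Its product exchanges ATP for ADP across the inner membrane. Slc25a5 had 8515, 6847, 7891 and 7151 normalized counts in AKO male inguinal fat, against 5530, 5075, 4947 and 5602 in WT. In female inguinal fat it had 13962, 14238, 16958 and 11792 in AKO, against 8326, 10249, 8697 and 9439 in WT. The groups did not overlap, and the log2 fold change was 0.52 in males and 0.63 in females (edgeR adjusted p = 0.00608 and 0.0161). For Slc25a5 the authors' deposited log2 fold change was 0.70 ± 0.12 (SE) in perigonadal fat. It was 0.51 in male and 0.60 in female inguinal fat by the same measure. Its paralog Slc25a4 had log2 fold changes of 0.55 in females (edgeR adjusted p = 0.0368) and 0.34 in males (0.0886, not called). Slc25a20, the acylcarnitine carrier, fell by 0.54 on the log2 scale in male inguinal fat (edgeR adjusted p = 0.0117). Of the 34 genes for carriers, chaperones and dynamics, the authors listed 2 as higher (5.88%, beside 4.54% of all genes tested) and 1 as lower (2.94%, beside 4.01%) in male inguinal fat, and 2 as higher in female inguinal fat (5.88%, beside 3.2%). In perigonadal fat they listed 1 as higher (2.94%, beside 5.68%) and 3 as lower (8.82%, beside 5.46%), and in liver 1 as lower. With 1 to 3 genes each, these shares do not set the list apart from all genes tested.

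**Figure D5:**
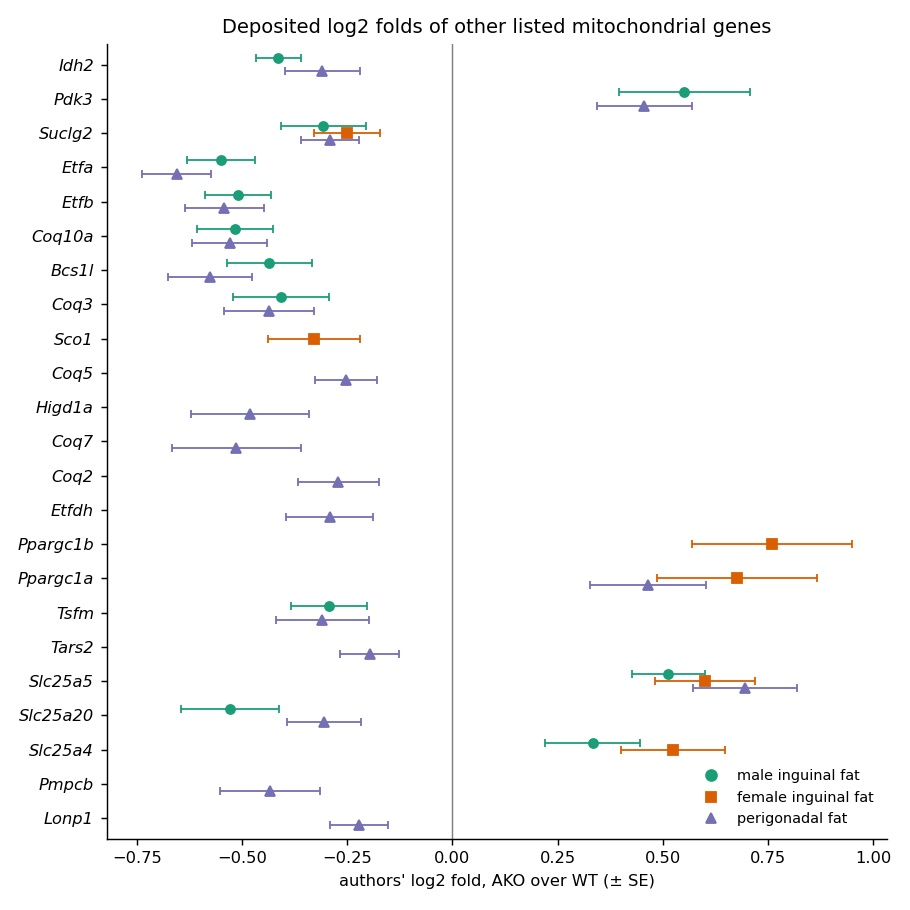
Genes of the mitochondrial lists that the authors listed in each tissue, plotted by deposited log2 fold change (AKO over WT) with its standard error. Etfa, Etfb, Coq10a, Bcs1l and Coq3 lie below 0 in both male fat depots, and Slc25a5 lies above 0 in all 3 fat tables.

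Of 27 genes of the TCA cycle and pyruvate entry, 1 was listed as higher (3.7%, beside 4.54% of all genes tested) and 2 as lower (7.41%, beside 4.01%) in male inguinal fat. In perigonadal fat 1 was listed as higher (3.7%, beside 5.68%) and 2 as lower (7.41%, beside 5.46%), and in female inguinal fat 1 as lower (3.7%, beside 2.63%). Suclg2 was listed as lower in all 3 fat tables. Its deposited log2 fold change was -0.31 in male inguinal, -0.25 in female inguinal and -0.29 in perigonadal fat. It was not called by edgeR in male or female inguinal fat (adjusted p = 0.0707 and 0.147). Idh2, the mitochondrial NADP-linked isocitrate dehydrogenase, averaged 1887 ± 58.2 normalized counts in AKO and 2526 ± 131 in WT male inguinal fat (SD, n = 4 each, log2 -0.42, edgeR adjusted p = 0.00246). Pdk3, a kinase that switches off pyruvate dehydrogenase, was higher in AKO male inguinal fat (log2 0.59, edgeR adjusted p = 0.0464). In perigonadal fat the authors' deposited table gives log2 fold changes of -0.31 for Idh2 and 0.46 for Pdk3, beside deposited values of -0.41 and 0.55 in male inguinal fat. Of 23 genes for mitochondrial DNA expression and biogenesis, none was listed in male inguinal fat, while in female inguinal fat the authors' deposited table lists the coactivators Ppargc1a (0.68 ± 0.19) and Ppargc1b (0.76 ± 0.19) as higher (8.7% of the list, beside 3.2%). Neither was called by edgeR over all genes tested (adjusted p = 0.0788 and 0.057). In perigonadal fat 1 of the 23, Ppargc1a, was listed as higher (4.35%, beside 5.68%). Of 25 mitochondrial translation factors, only Tsfm was listed in male inguinal fat (4%, beside 4.01% of all genes tested) and Tsfm and Tars2 in perigonadal fat (8%, beside 5.46%), each as lower. Of 103 symbols that start like those of cytosolic ribosomal proteins, the tables listed only Rps6ka3, which encodes a kinase, and Rps4y2.

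Markers of other cells were also listed by the authors in the same comparisons. In female inguinal fat 4 of 6 epithelial markers (Krt7, Krt8, Csn3, Cldn7) were listed as lower, with summed normalized counts of 6066 to 9434 in AKO and 14087 to 18245 in WT. There 3 of 10 macrophage markers (Csf1r, Cd163, Lyz2) were listed as higher, with sums of 17178 to 23526 in AKO and 13821 to 17225 in WT, and Adipoq was 61301 to 74578 in AKO and 45320 to 50391 in WT. In male inguinal fat 2 of 8 adipocyte markers (Plin1, Cebpa) were listed as lower, with sums of 20911 to 24106 in AKO and 25294 to 32192 in WT. There 1 of 17 muscle markers (Acta1) was lower, with 22.2 to 55.5 in AKO and 64.4 to 102 in WT, as was 1 of 10 macrophage markers (Cd14), with 255 to 338 in AKO and 349 to 441 in WT. The brown or beige marker Lhx8 was listed as higher in both inguinal sets, with 81.6 to 156 normalized counts in AKO males, against 51.3 to 92.9 in WT males, and 113 to 225 in AKO females, against 69.7 to 111 in WT females. The mesothelial marker Lrrn4 was listed as higher in both, with 100 to 139 in AKO males, against 24.2 to 40.5 in WT males, and 122 to 226 in AKO females, against 59.7 to 94.2 in WT females. The mural marker Cspg4 was listed as lower in both, with 963 to 1099 in AKO males, against 1476 to 2199 in WT males, and 1198 to 1685 in AKO females, against 2462 to 2937 in WT females. Pecam1, an endothelial marker, was listed as higher in males, with 3830 to 3976 in AKO and 3146 to 3597 in WT. Not all of these were called by edgeR over all genes tested. In males it did not call Plin1, Cebpa, Cd14, Lhx8 or Pecam1 (edgeR adjusted p of 0.0736 to 0.185). In females it did not call Cldn7, Cd163, Lyz2 or Lhx8 (edgeR adjusted p of 0.0587 to 0.132). The other inguinal markers named here were called. In perigonadal fat 2 of 8 adipocyte markers (Cidec, Lipe) and 4 of 9 progenitor and mesothelial markers were listed as lower in the authors' deposited table, as was 1 of 6 epithelial markers (Krt7). It lists 3 of 10 macrophage markers and 1 of 6 lymphoid markers (Ptprc) as higher. Markers that are not listed have no level here. The part of these cells in the members' values was not tested.

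In liver, which the adiponectin promoter does not target, 0 members were listed, beside 37 of about 11441 genes tested (0.323%). At that share, the absence does not set the members apart from all genes tested. Of the genes on the 6 lists, only Slc25a10, the dicarboxylate carrier of the inner membrane, was listed in liver. The other listed liver genes were not checked for a mitochondrial role. Slc25a10 is described here for that reason alone. It had 3486, 3509, 3541 and 3269 normalized counts in AKO, against 4278, 4110, 4386 and 4403 in WT. The authors' deposited table gives a log2 fold change of -0.31 ± 0.05 (adjusted p = 8.36e-06), while edgeR's quasi-likelihood test over about 11441 genes gave an adjusted p of 0.185. Without AKO replicate 4, the library whose description names another tissue, the log2 fold change was -0.29 ± 0.06 (SE, edgeR adjusted p = 0.658).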

How the data were processed

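Poly(A) RNA was extracted with Trizol and RNeasy and made into TruSeq Stranded libraries, per the labels' protocols. STAR, DESeq2 and the build mm10 are named, without versions, per the submitters' processing notes; no counter, strand setting or annotation is given in the sources used here. The deposited count tables (male inguinal fat, female inguinal fat, liver) hold whole-number read counts, not normalized, for the listed genes only, 1074, 790 and 34 with counts. Per the file headers, the authors' comparison tables give each gene's mean normalized count (a signal on the count scale), log2 fold change, standard error, adjusted p-value and, outside liver, p-value. The sign of the deposited log2 value matched AKO over WT for every gene with counts, and was taken to mean the same in perigonadal fat.

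Samples were grouped by their titles, with the replicate numbers given there. The authors' size factors were solved from counts and deposited means (largest misfit 4.79e-08% in male, 4.73e-08% in female inguinal fat, 0.298% in liver, where means are rounded and 3 repeated rows were left out). They served as offsets in edgeR 4.0.16 (R 4.3.3; glmQLFit and glmQLFTest, no covariate, no filter). Benjamini-Hochberg adjustment at 0.05 ran over the number of genes the authors tested, recovered from p and adjusted p (estimated for liver), with the genes not held taken as not called. Results were called higher or lower by edgeR where counts were held and by the authors' adjusted p in perigonadal fat. Alternatives were DESeq2 1.42.0, TMM or table-total scaling, robust fitting, a count filter, other thresholds, a replicate block and leaving out each library. Every listed member is named. Members and lists were chosen with earlier results of these data known. Positions are from GENCODE M21 (GRCm38) and promoters from RefSeq (GRCm38.p6).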

Additional observations from a re-analysis of the deposited data

How the results depend on the processing

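Atp5g1 and Mrps6 stayed called under every alternative run in each inguinal set, with log2 fold changes of 1.44 to 1.55 (male) and 1.34 to 1.70 (female) for Atp5g1 and 1.13 to 1.40 (male) and 0.96 to 1.28 (female) for Mrps6. At an adjusted p under 0.01 edgeR called 2 of the male members in place of 4, and the authors' perigonadal calls dropped to 2 in place of 8, as they did to 2 when a change of at least 1.5-fold was asked for. Leaving out 1 library gave 3 to 4 male calls, 2 to 3 female calls and 0 to 0 sex differences. Female Mrpl45 was not called with TMM factors (adjusted p = 0.123), with table totals (log2 0.21, 0.974) or with the replicate block (0.0938), and male Sdhaf1 not with table totals (0.0722) or the block (0.0599). Timm50 was called in males with TMM factors (0.0336), DESeq2 (0.021), the replicate block (0.0264) and without AKO replicate 4 (0.0381), and Mrpl9 with TMM factors (0.029) and DESeq2 (0.0197); the cause was not tested. Table totals moved the median log2 fold change of all listed female genes by -0.21. The sex differences, none called, changed sign with 1 library left out, to 0.076 or 0.02 for Atp5g1 (range -0.188 to 0.076), 0.01 or 0.032 for Mrpl45 (-0.084 to 0.032) and -0.011, -0.031 or -0.015 for Mrps6 (-0.031 to 0.234). Same-numbered AKO and WT libraries correlated at 0.071 to 0.26 in males and -0.296 to 0.175 in females, so the numbers were not taken as pairs; with the replicate block edgeR called 4 male and 2 female members. Alternatives that need a member were not run for liver, where no member was held. Uncalled members, their depth and perigonadal values per mouse limit all counts of members.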
